A study of Mus musculus with 6 samples.

Results

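Rmrp, Rpph1 and Terc are non-coding RNAs, the RNA subunits of RNase MRP, RNase P and telomerase. They are 3 of the 26073 RefSeq rows that each of the 6 RNA-seq libraries lists, and they were found by their RefSeq accessions. Rmrp and Rpph1 were chosen by their counts and RPKM, which had been seen higher after SMC2 than after CAPH2 knockdown in these same libraries, so values for that contrast are given as a description and without a test, while no such difference had chosen Terc.

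RNase P removes the 5′ leader of precursor tRNAs, and RNase MRP cleaves the precursor of ribosomal RNA. The enzymes have different RNAs but share most of their protein subunits, and in mammals both RNAs are made by RNA polymerase III from short promoters that lie upstream of the transcribed sequence. Terc, which is the template for telomere repeats, is made by RNA polymerase II and is held by proteins of the H/ACA family such as dyskerin. None of these RNAs carries the long poly(A) tail of an mRNA in its mature form.

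The libraries were made from V6.5 murine ESCs, a C57BL/6-129 embryonic stem cell line, infected with lentiviral shRNA constructs. The control shRNA, which targets GFP, had 1 library, and there was 1 for SMC1, a subunit of cohesin, 2 for CAPH2, a subunit found only in condensin II, and 2 for SMC2, a subunit shared by condensin I and condensin II. The 2 libraries of a target carry different hairpins, here called #1 and #2 (the CAPH2 pair is also numbered #3 and #4 in the sample notes). Infected cells were selected with puromycin at 0.5 µg/ml for 48 hr and at 1 µg/ml for a further 48 hr, and had been grown for a passage without the irradiated fibroblasts on which the line is kept. Total RNA matching 652000 cells received 1.42 µl of diluted ERCC synthetic RNAs, and libraries were made with the TruSeq RNA kit version 2, which enriches RNA with oligo(dT). The sources used name no batch, and each hairpin was sequenced in a single library, so a hairpin and the preparation of its library cannot be told apart. No source says that the libraries came from separate cultures, so spreads between hairpins may be partly technical.

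The RPKM values rest on 18823247 to 23324537 reads per library. Ncaph2 encodes CAPH2, and its RPKM was 80.2 with the GFP shRNA and 16.9 and 27.9 with the CAPH2 hairpins. Smc2 had 26.6 in the GFP library, 18.8 and 19.1 with its own hairpins and 40.6 to 42.3 in the other knockdown libraries, so the reduction relative to GFP was smaller than that of Ncaph2. Smc1a, the gene of SMC1, had 36.1 in the GFP library and 14.4 with its hairpin. All 8 markers of embryonic stem cells had an RPKM of at least 1 in every library, and their summed RPKM was 1785 with SMC1 and 2712 to 3273 in the others. Of 8 fibroblast markers, which could come from feeder cells, 5 had an RPKM of at least 1 in every library, and their summed RPKM was 46.4 with GFP, 92.5 with SMC1, 72.4 and 49.5 with the CAPH2 hairpins and 55.8 and 49.7 with the SMC2 hairpins. Lum was at 0 with both CAPH2 hairpins, and Dcn lay between 0.026 and 0.56. Since whole cultures were measured, fewer cells of a type and less RNA per cell cannot be told apart, and the part of feeder cells in the levels below was not tested.

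The genes lie on different chromosomes of mm9 and do not resemble each other in sequence. Rmrp (NR_001460) is at chr4:43505657-43505931 on the minus strand and is 275 bases long. Rpph1 (NR_002142) is at chr14:51427122-51427446, where the files list the plus strand and the GENCODE annotation of the same build the minus strand, which is the strand followed here. Terc (NR_001579) is at chr3:96218360-96218756 on the minus strand and is 397 bases long. All are non-coding rows with no UTR. The longest run of bases that Rmrp and Rpph1 have in common is 9.

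The 100 bases before each start are shown first because the promoters are what Rmrp and Rpph1 share. Capitals mark matches to TCACCNTAA (a form of the proximal sequence element of upstream RNA polymerase III promoters), to the octamer ATGCAAAT, to TATAA and to CCAAT, on either strand.
Rmrp, chr4:43505932-43506031, minus strand: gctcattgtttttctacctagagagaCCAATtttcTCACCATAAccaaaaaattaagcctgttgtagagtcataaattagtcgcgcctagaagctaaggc
Rpph1, chr14:51427447-51427546, minus strand: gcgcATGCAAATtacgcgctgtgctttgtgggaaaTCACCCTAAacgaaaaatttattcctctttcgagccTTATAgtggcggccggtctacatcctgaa
Terc, chr3:96218757-96218856, minus strand: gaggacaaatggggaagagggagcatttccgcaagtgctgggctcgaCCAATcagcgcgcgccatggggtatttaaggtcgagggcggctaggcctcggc

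TCACCNTAA stood at the same distance from both starts, at bases -65 to -57 of Rmrp and of Rpph1, and was not in the 250 bases before Terc. It was in 0.399% of 32851 RefSeq promoters (GRCm38, 250 bases before the start, both strands), and its letters were written down after the promoters of Rmrp and Rpph1 had been read, so the match is a description of them. The octamer was at -96 to -89 of Rpph1 and, on the other strand, at -222 to -215 of Rmrp, outside the stretch shown, and 1.60% of promoters hold it. TATAA was on the other strand at -29 to -25 of Rpph1 and at -167 to -163 of Rmrp, and 22.8% of promoters hold it. CCAAT was at -74 to -70 of Rmrp and at -53 to -49 of Terc, and 33.9% of promoters hold it. The searched motifs do not overlap each other in these promoters. A match of letters does not show that a factor is bound there.

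The RNAs themselves are shown because their ends bear on how they enter a library made with oligo(dT). In the first stretch below, Rmrp is given whole with the 15 bases that follow it, and capitals mark the first run of at least 4 T. In the second, capitals mark a tandem repeat in Rpph1. In the third, which holds the last 25 bases of Rpph1 and the 15 that follow, capitals mark the run of T. In the last, capitals mark CTAACCCT, the part of Terc that is copied into telomere repeats.
Rmrp, chr4:43505642-43505931, minus strand: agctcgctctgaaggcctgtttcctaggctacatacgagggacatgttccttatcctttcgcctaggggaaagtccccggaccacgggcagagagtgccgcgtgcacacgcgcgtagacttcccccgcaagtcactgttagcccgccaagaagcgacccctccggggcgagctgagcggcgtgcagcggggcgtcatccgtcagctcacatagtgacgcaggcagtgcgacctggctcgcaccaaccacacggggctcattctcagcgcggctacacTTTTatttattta
Rpph1, chr14:51427147-51427446, minus strand: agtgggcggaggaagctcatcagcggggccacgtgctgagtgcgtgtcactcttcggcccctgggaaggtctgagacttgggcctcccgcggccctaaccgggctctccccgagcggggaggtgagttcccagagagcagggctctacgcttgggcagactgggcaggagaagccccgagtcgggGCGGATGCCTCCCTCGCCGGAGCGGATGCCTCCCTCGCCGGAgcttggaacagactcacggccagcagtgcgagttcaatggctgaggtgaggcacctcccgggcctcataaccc
Rpph1, chr14:51427107-51427146, minus strand: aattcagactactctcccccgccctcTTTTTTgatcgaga
Terc, chr3:96218637-96218756, minus strand: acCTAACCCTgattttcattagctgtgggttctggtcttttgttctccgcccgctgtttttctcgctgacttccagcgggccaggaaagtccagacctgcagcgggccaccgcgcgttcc

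A run of T, at which RNA polymerase III ends transcripts, began 3 bases past the end of Rmrp with 4 T and 2 bases past the end of Rpph1 with 6 T. No run of at least 4 T was found in the last bases of Terc or in the 50 bases after it. The polyadenylation signal AATAAA was in none of the 3 RNAs nor in the 50 bases after them. The longest run of A, to which oligo(dT) could anneal, was 3 in Rmrp, 2 in Rpph1 and 5 in Terc. The GC content was 63.6% in Rmrp and 66.8% in both Rpph1 and Terc.

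The repeat in Rpph1 is 21 bases long and stands there 2 times, at positions 186 to 227 of the RNA. The deposited RPKM of Rpph1 rests on a length of 304 bases, which is 21 fewer than the 325 bases the row spans. Reads that aligned to more than 2 places were discarded, so near-identical copies elsewhere could remove reads. At an E value of at most 1e-05, blastn found 3 further matches in the genome for Rmrp, 181 for Rpph1 and 11 for Terc. Of these, 0, 3 and 4 reached 36 bases at 95% identity. The longest match elsewhere was 155 bases at 72.3% identity for Rmrp, 305 bases at 74.8% for Rpph1 and 408 bases at 81.1% for Terc. The Rpph1-like genes Rprl1, Rprl2 and Rprl3 had between 0 and 3 counts in each library.

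Rmrp was nearly missing with both CAPH2 hairpins. Its counts were 106 with GFP, 45 with SMC1, 2 and 1 with CAPH2 #1 and #2, and 39 and 151 with SMC2 #1 and #2. Per length and depth, the RPKM was 17.9, 8.51, 0.312, 0.193, 6.30 and 26.9 in the same order. SMC2 #2 was the highest library and both CAPH2 libraries were the lowest, with GFP lying between the SMC2 hairpins.

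Rpph1 had the same order except that SMC1 changed places with SMC2 #1 and CAPH2 #1 with CAPH2 #2. It had 63 counts with GFP, 22 with SMC1, 6 and 5 with the CAPH2 hairpins, and 31 and 84 with the SMC2 hairpins. The RPKM was 9.63, 3.76, 0.846, 0.874, 4.53 and 13.5. Again both CAPH2 libraries lay below all others, and SMC2 #2 lay above GFP.

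Terc did not share this pattern. It had 16 counts with GFP, 16 with SMC1, 18 and 28 with the CAPH2 hairpins, and 21 with each SMC2 hairpin. The RPKM was 1.87, 2.10, 1.94, 3.75, 2.35 and 2.59. CAPH2 #2 was its highest library, and the CAPH2 libraries lay on both sides of the SMC2 libraries. The highest RPKM was 2.00 times the lowest for Terc, 16.0 times for Rpph1 and 139 times for Rmrp, where the lowest value rests on 1 count.

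**Figure D1:**
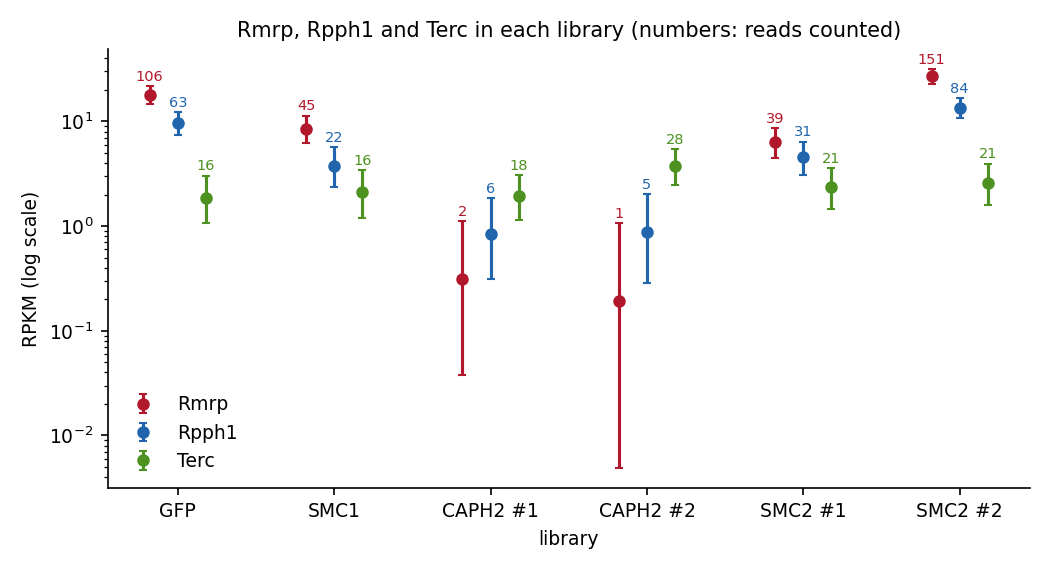
RPKM (log scale) of Rmrp, Rpph1 and Terc in each of the 6 libraries, with the reads counted written above each point. Bars are exact Poisson 95% intervals of the count and cover counting error only. Rmrp and Rpph1 are lowest with both CAPH2 hairpins, while Terc lies between 1.87 and 3.75 in all libraries.

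Neighbours in the order of levels were compared by exact 95% intervals of the ratio, conditional on the summed count, which cover counting error only. The order was set by these same counts, and the steps of Rmrp and Rpph1 down to CAPH2 use values that chose them. The ratios are thus given as a description and not as tests. For Rmrp, SMC2 #2 was 1.502 times GFP (1.164 to 1.944), GFP was 2.10 times SMC1 (1.47 to 3.05), and SMC2 #1 was 20.2 times CAPH2 #1 (5.23 to 173). SMC1 and SMC2 #1 could not be separated, at a ratio of 1.35 (0.861 to 2.13), nor could the CAPH2 hairpins with their 2 and 1 counts. For Rpph1, SMC2 #2 over GFP was 1.41 (1.00 to 1.98), GFP over SMC2 #1 was 2.13 (1.36 to 3.38), and SMC1 over CAPH2 #2 was 4.31 (1.59 to 14.6). SMC2 #1 over SMC1 was 1.20 (0.674 to 2.18), and the CAPH2 hairpins were within counting error of each other. For Terc, no adjacent libraries in the order differed beyond counting error, the widest step being CAPH2 #2 over SMC2 #2 at 1.45 (0.792 to 2.68).

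Between the condensin knockdowns, the group means of Rmrp were 0.253 ± 0.0841 RPKM with CAPH2 and 16.6 ± 14.6 with SMC2 (SD, n = 2 hairpins). Over 3 counts in the CAPH2 libraries and 190 in the SMC2 libraries, the ratio was 62.2 (21.0 to 304). For Rpph1 the means were 0.860 ± 0.0198 and 9.03 ± 6.37 (SD, n = 2), and over 11 and 115 counts the ratio was 10.3 (5.53 to 21.1). These ratios are the values that chose both RNAs, and their intervals leave out the variation between hairpins. Terc had means of 2.85 ± 1.27 and 2.47 ± 0.172 (SD, n = 2), and over 46 and 42 counts its ratio was 0.896 (0.576 to 1.39).

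The SMC2 hairpins differed from each other by more than counting error for both RNAs. SMC2 #2 was 4.27 times SMC2 #1 for Rmrp (2.99 to 6.24) and 2.99 times for Rpph1 (1.96 to 4.67), but 1.10 times for Terc (0.574 to 2.12). The CAPH2 hairpins differed beyond counting error for Terc, where CAPH2 #2 was 1.93 times CAPH2 #1 (1.03 to 3.70). For the knocked-down Smc2 itself the SMC2 hairpins left nearly the same level, 70.7% and 71.9% of GFP.

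Fitted with edgeR, the log2 difference of SMC2 minus CAPH2 was 5.88 for Rmrp, 3.36 for Rpph1 and -0.16 for Terc, with an SD between hairpins of 1.09, 0.79 and 0.48. Without SMC2 #2 the differences of Rmrp and Rpph1 were 4.51 and 2.38, and without SMC2 #1 they were 6.59 and 3.96. The first and second largest increases among the 18245 RefSeq rows fitted were those of Rmrp and Rpph1, which is the contrast that chose them. Both passed the filter, at least 10 counts in at least 2 of the 4 libraries, only through their SMC2 libraries. For 2 of the 3 RNAs both SMC2 libraries lay above both CAPH2 libraries, as did 15.5% of all rows, a share given as background only. At an adjusted p under 0.05, 0.00548% of rows were called in either direction, and the single row called was Smc2 itself. Rmrp and Rpph1 were among the rows fitted, but this contrast chose them, so no test result is read for them.

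The range over the CAPH2 and SMC2 libraries is another form of the contrast that chose Rmrp and Rpph1, and is given as a description. The highest minus the lowest log2 level was 6.54 for Rmrp, 3.89 for Rpph1 and 0.93 for Terc. Among the 17095 rows with a mean of at least 20 counts over these libraries, Tbrg3 came next after Rmrp and Rpph1, at 3.74. It had 5 and 8 counts with the CAPH2 hairpins and 14 and 64 with the SMC2 hairpins. The 2338 rows with a mean of 20 to 80 counts over these libraries had a median range of 0.55. Rmrp and Rpph1 reach a mean of 20 counts only through their SMC2 libraries.

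**Figure D2:**
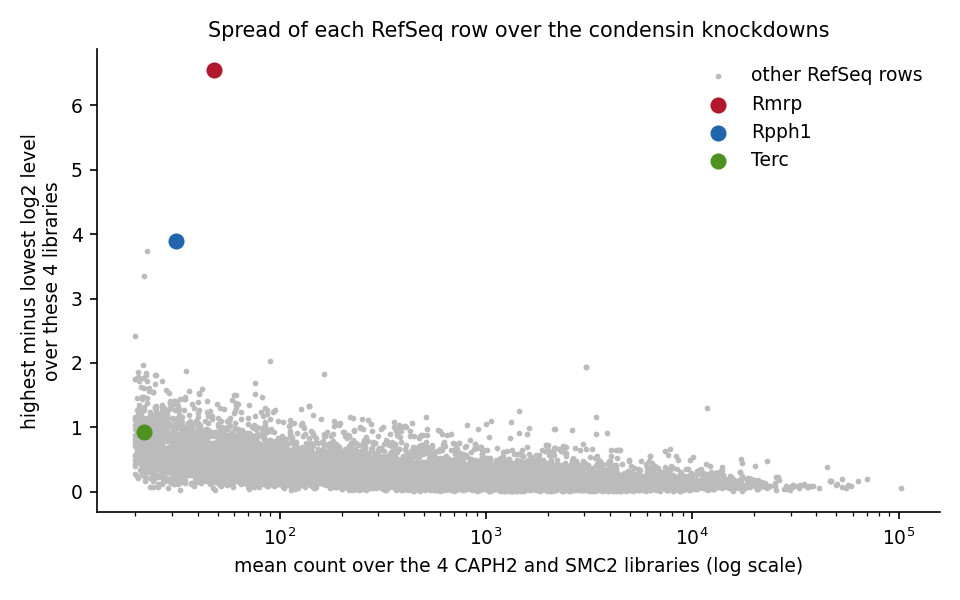
Highest minus lowest log2 level over the 4 CAPH2 and SMC2 libraries against the mean count (log scale), with a point for each of 17095 RefSeq rows. Rows have a mean of at least 20 counts, which Rmrp at 6.54 and Rpph1 at 3.89 reach only through the SMC2 libraries, and their high position follows from how they were chosen. Terc is at 0.93.

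Relative to GFP, both RNAs were far lower in both CAPH2 libraries. The level of Rmrp left was 1.74% of GFP with CAPH2 #1 (exact 95% interval 0.208 to 6.45) and 1.08% with CAPH2 #2 (0.027 to 6.14), which are log2 changes of -5.84 and -6.54. Rpph1 was left at 8.79% (3.11 to 20.2) and 9.07% (2.85 to 22.3), or -3.51 and -3.46 on the log2 scale. Of the 15538 rows whose RPKM reached 1 with GFP, 1.45% were lower by at least 1 on the log2 scale with CAPH2 #1 and 0.451% with CAPH2 #2. All these changes share the single GFP library, so no spread of the control is known and no test was made. The CAPH2 counts are also among the values that chose Rmrp and Rpph1. The changes are thus given as a description and the shares of rows as background only.

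With SMC2 the direction depended on the hairpin. Rmrp was at 35.1% of GFP with SMC2 #1 (23.7 to 51.2) and at 150.2% with SMC2 #2 (116.4 to 194.4). Rpph1 was at 47.0% with SMC2 #1 (29.6 to 73.4) and at 140.6% with SMC2 #2 (100.2 to 198.1). Both RNAs were thus lower by at least 1 on the log2 scale with SMC2 #1, as were 0.972% of rows, and neither was higher by that much with SMC2 #2, where 0.277% of rows were. The mean over the SMC2 hairpins was -0.11 for Rmrp and -0.09 for Rpph1 on the log2 scale, and these means turned to 0.47 and 0.49 when libraries were scaled to the ERCC RNAs.

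With SMC1, Rmrp was at 47.5% of GFP (32.8 to 68.0) and Rpph1 at 39.1% (22.9 to 64.4), or -1.07 and -1.36 on the log2 scale. In that library 8.17% of rows were lower by at least 1, the largest share of the 5 knockdown libraries. Terc was at 111.9% of GFP with SMC1 (52.4 to 239), at 103.8% and 200.1% with the CAPH2 hairpins (49.97 to 217.6 and 104.6 to 395.9) and at 125.4% and 138.4% with the SMC2 hairpins (62.3 to 257 and 68.8 to 284). With CAPH2 #2 it thus reached a log2 change of 1.00, and 0.18% of rows were higher by at least 1, while CAPH2 #1 gave 0.05.

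The ERCC RNAs were added by cell number, so scaling to their counts gives levels per cell rather than per read. Under that scaling the median of all rows relative to GFP moved to 0.84 with SMC1, 0.63 and -0.07 with the CAPH2 hairpins and 0.61 and 0.54 with the SMC2 hairpins on the log2 scale, from between -0.03 and -0.01 in the deposited RPKM. Rmrp was then at 86.5% of GFP with SMC1, 2.70% and 1.04% with the CAPH2 hairpins, and 54.7% and 222.6% with the SMC2 hairpins. Rpph1 was at 71.2%, 13.6%, 8.78%, 73.1% and 208.3% in the same order. Rmrp and Rpph1 were still lowest with both CAPH2 hairpins, but the SMC1 values no longer reached a log2 change of -1. Terc was between 160.9% and 205.1% of GFP in all 5 knockdown libraries, or 1.03, 0.69, 0.95, 0.96 and 1.04 on the log2 scale. Each value lay above the median of all rows in its library, with CAPH2 #1 at only 0.69 against 0.63. All 5 values share the single GFP library, where Terc had 16 counts (exact Poisson interval 9.1 to 26.0). They are thus not 5 independent increases, and a rise of Terc per cell was not tested.

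The share of Rmrp in the summed counts of Rmrp and Rpph1 was lowest in the CAPH2 libraries, on very few counts. Rmrp made up 62.7% of the summed counts of both with GFP (exact 95% interval 54.96 to 70.03), 67.2% with SMC1 (54.6 to 78.2), and 55.7% and 64.3% with the SMC2 hairpins (43.3 to 67.6 and 57.8 to 70.4). In the CAPH2 libraries it made up 3 of 14 counts, or 21.4% (4.66 to 50.8). The counts of both CAPH2 hairpins are summed there, GFP is a single library, and the CAPH2 counts are among the values that chose both RNAs. The shares are thus given as a description.

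RNAs that also lack a long poly(A) tail were compared with Rmrp and Rpph1, since they could share how they pass oligo(dT) enrichment. The small RNA classes were limited to rows of at most 300 bases, a limit set after the data were seen, because the class of 422 microRNA rows held 5 longer ones. One of these is the host transcript Mir17hg, with 1848 of the 3628 counts of the class in the GFP library. The summed counts of 64 C/D box rows, which guide methylation of RNA, were 62.41 to 69.97 reads per 1000000 across the 6 libraries, a highest over lowest ratio of 1.121. For 23 H/ACA rows, which guide pseudouridylation, the sums were 31.8 to 36.9 per 1000000, a ratio of 1.16. For 72 rows of histone mRNAs they were 34.5 to 45.8, a ratio of 1.33, and for 417 microRNA precursor rows they were 75.3 to 85.4, a ratio of 1.13. The 9 Cajal body rows had 19 to 33 counts in all and summed to 0.815 to 1.62, lowest with CAPH2 #1. The small nuclear rows were not used as a class, since nearly all their counts came from a row of 3034 bases named Rnu7. None of these classes was as low with CAPH2 as Rmrp and Rpph1, whose CAPH2 values are among those that chose them. Most C/D box and H/ACA RNAs lie in introns of other genes, however, so their rows may hold reads of the host transcript. Of the 1635 counts of the microRNA precursor rows with GFP, 447 were in the row of Mir686. The histone rows had no length limit, and a row of 37382 bases was among them. Whether the microRNA and histone rows also hold reads of other transcripts was not tested.

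The long nuclear RNAs Malat1 and Neat1, which are also without an ordinary tail or in part so, were counted far more often. Malat1 had 7992 counts with GFP, 12414 with SMC1, 9163 and 7500 with the CAPH2 hairpins, and 11014 and 19667 with the SMC2 hairpins. Like Rmrp and Rpph1, it was highest with SMC2 #2, at a log2 change of 1.38 relative to GFP, but with CAPH2 it was at 0.08 and 0.10. Neat1 had 7547 counts with GFP, 1916 with SMC1, 7201 and 6031 with CAPH2 and 6060 and 7220 with SMC2. With all 608 rows of these groups as library sizes, in which Malat1 and Neat1 weigh most and the longer rows are included, the log2 difference of SMC2 minus CAPH2 was 5.43 for Rmrp and 2.93 for Rpph1, while the median of all rows moved to -0.33. The part of library preparation in the result was not tested.

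Other short RNAs with genes of their own were barely counted. The vault RNA Vaultrc5, which RNA polymerase III also makes, had 0 to 2 counts per library, the spliceosomal Rnu11 had 0 to 1, and the spliceosomal Rnu12 and the 10 rows of Rn4.5s had 0 in every library. For these no comparison between hairpins was possible with so few counts. Where reads can be placed, 0 counts allow up to 3 per library. The 10 rows of Rn4.5s carry the same accession, and reads that aligned to more than 2 places were discarded. Its reads may have been lost in this way, so its 0 counts do not bound its level.

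**Figure D3:**
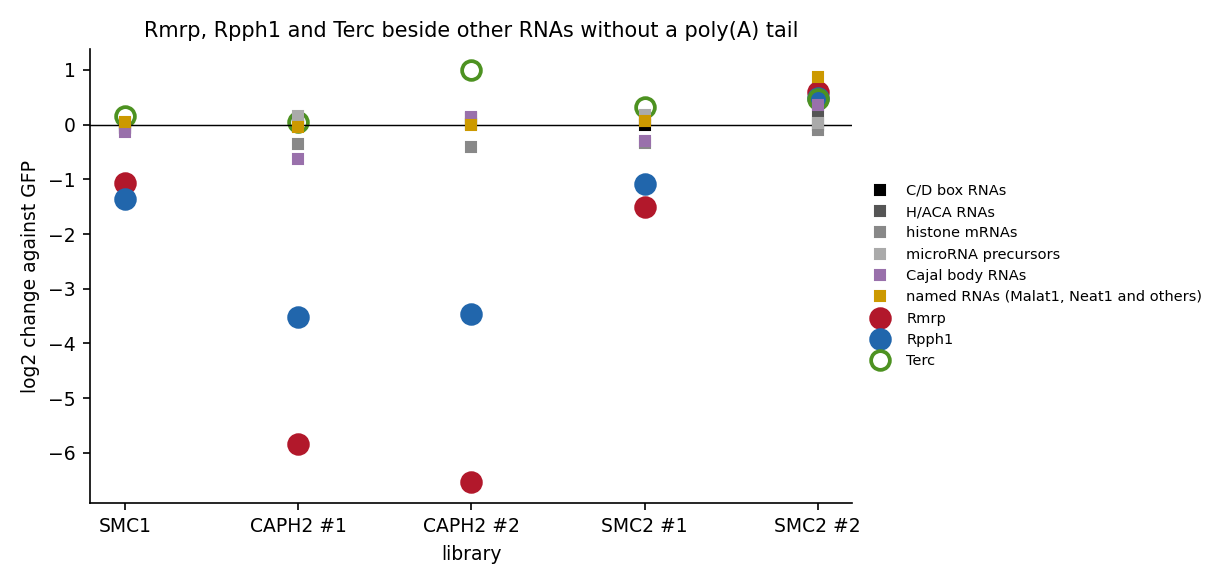
Log2 change relative to the GFP library in the 5 knockdown libraries for Rmrp, Rpph1 and Terc (circles) and for the summed counts of 6 classes of RNAs without an ordinary poly(A) tail (squares; small RNA rows of at most 300 bases). With the CAPH2 hairpins Rmrp is at -5.84 and -6.54 and Rpph1 at -3.51 and -3.46, values that are among those that chose them. The lowest class is the Cajal body RNAs at -0.62 with CAPH2 #1, on 19 counts, and with CAPH2 the other classes lie between -0.41 and 0.16.

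The genes beside Rmrp and Rpph1 were not low with CAPH2, apart from Sit1 with its few counts. Ccdc107, which starts 344 bases from Rmrp on the opposite strand, had an RPKM of 17.3 to 22.1 in all libraries and log2 changes relative to GFP of -0.21 and -0.20 with CAPH2. Sit1, 9075 bases away on the other side, had 1 to 7 counts. Parp2, a poly(ADP-ribose) polymerase gene that starts 174 bases from Rpph1 on the opposite strand, had an RPKM of 35.0 to 44.4 and log2 changes of -0.08 and 0.00 with CAPH2. Ccnb1ip1, 11718 bases from Rpph1, had -0.43 with SMC1 and 0.13 to 0.26 in the other libraries.

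A row without a symbol, NR_030456, lies inside Rpph1 at chr14:51427159-51427267 and can share its reads. It had 25 counts with GFP, 14 with SMC1, 1 and 5 with CAPH2 and 13 and 33 with SMC2, and its order by RPKM was that of Rpph1 except that SMC1 lay above SMC2 #1. The neighbours of Terc were far away. Rnu1b2 at 40171 bases had 0 to 1 counts, and Hjv, the gene of hemojuvelin at 110351 bases, had an RPKM of 1.17 to 1.84.

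The protein subunits of RNase P and RNase MRP were at nearly the same level with SMC2 and CAPH2. All 11 genes of the list were fitted, and with edgeR 0 were called in either direction at an adjusted p under 0.05, where 0.00548% of rows were. The count at an unadjusted p under 0.05 was also 0, where 3.1% of rows were, and DESeq2 called 0. Their median log2 difference was -0.02, beside 0.00 over all rows, and they ranged from -0.18 to 0.08. Pop1, the large scaffold subunit, differed by -0.02 ± 0.08 (SE) and Rpp30 by 0.02 ± 0.10. Pop5 at -0.18 ± 0.12 and Pop4 at -0.10 ± 0.08 had the largest differences. Relative to GFP, 1 of the 11 reached a log2 change of -1 in any library, namely Rpp25 at -1.71 with SMC1. In that library 8.17% of all rows were lower by at least 1. With CAPH2 the 11 lay between -0.29 and 0.28.

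The proteins of telomerase were likewise near 0. Of 16 genes, edgeR called 0, with 1 at an unadjusted p under 0.05, where 3.1% of all rows were, and DESeq2 called 0. Their median log2 difference was -0.01 (-0.18 to 0.17). Tert, the reverse transcriptase, differed by 0.05 ± 0.12 (SE) and Dkc1, the gene of dyskerin, by -0.03 ± 0.07. Wrap53, which brings the RNA to Cajal bodies, differed by -0.18 ± 0.13, and Tent4b, a poly(A) polymerase that acts on the 3′ end of the telomerase RNA, by 0.17 ± 0.07. Tent4b was the gene at an unadjusted p under 0.05. No telomerase gene reached a log2 change of 1 relative to GFP in either direction, and Tert was lowest with SMC1, at -0.67. For shelterin, the complex bound to telomere repeats, 7 genes were fitted, with edgeR and DESeq2 calling 0 and 0 at an unadjusted p under 0.05. Their median was -0.06, Terf1 differed by -0.09 ± 0.07, and Pot1b at -0.14 ± 0.11 and Acd at -0.09 ± 0.09 differed most.

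The machinery that transcribes Rmrp and Rpph1 also differed little between SMC2 and CAPH2. Of 13 subunits of RNA polymerase III, edgeR and DESeq2 called 0, with 0 at an unadjusted p under 0.05, and the median log2 difference was 0.00 (-0.16 to 0.27). Polr3a, the largest subunit, differed by 0.11 ± 0.07 (SE), and Polr3g, the form of the RPC7 subunit that prevails in embryonic stem cells, by 0.00 ± 0.07. Its counterpart Polr3gl had the largest difference, 0.27 ± 0.15, followed by Crcp at -0.16 ± 0.10. Relative to GFP, Polr3gl was at -1.79 with SMC1, -0.85 and -0.38 with CAPH2, and -0.44 and -0.25 with SMC2.

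Of 20 factors of RNA polymerase III promoters, among them the SNAPc subunits that bind the proximal sequence element, edgeR and DESeq2 called 0, with 0 at an unadjusted p under 0.05. Their median was -0.02 (-0.13 to 0.26). Pou2f1, which binds the octamer, differed by 0.26 ± 0.13 (SE), and Brf2, which acts only at upstream promoters of this kind, by -0.13 ± 0.10. Pou2f1 reached a log2 change of at least 1 relative to GFP with SMC1 (1.24), as did 6.49% of rows there. With SMC2 #2 it also reached that size (1.11), as did 0.277% of rows, and it had 0.93 with CAPH2 #2 and 0.89 with SMC2 #1. Non-coding RNAs that do carry a poly(A) tail were at a median of 0.06 over the 14 fitted, with 0 called by edgeR or DESeq2 and 0 at an unadjusted p under 0.05. They ranged from -0.04 to 0.41, the highest being Miat on a mean of 44.75 counts. Among those with a mean of at least 50 counts, Xist at 0.16 ± 0.11 and Snhg6, a host gene of small nucleolar RNAs, at 0.15 ± 0.09 differed most.

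**Figure D4:**
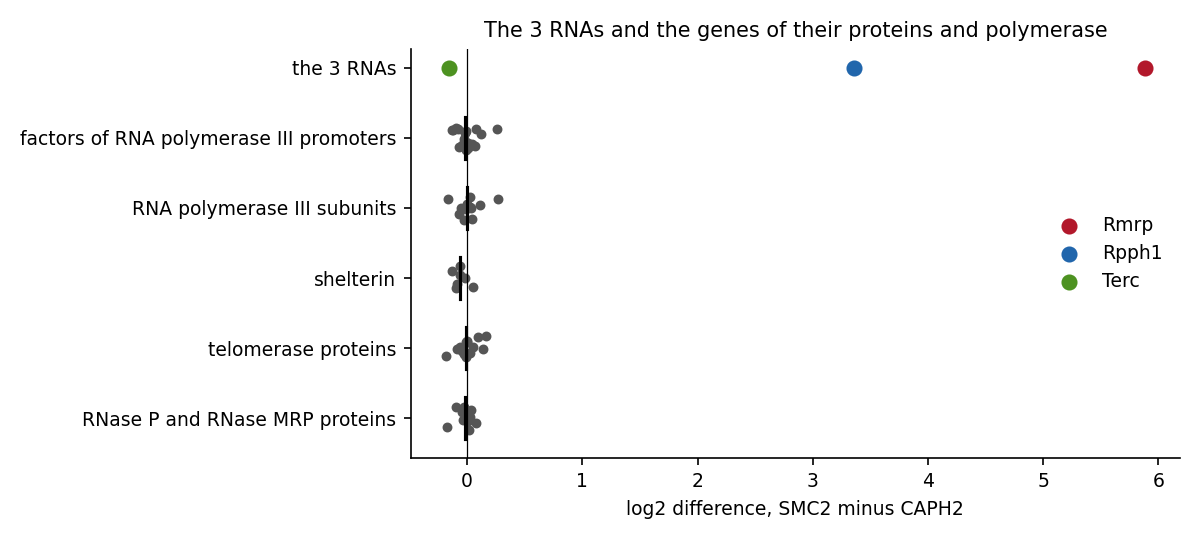
Log2 difference of SMC2 minus CAPH2 for Rmrp, Rpph1 and Terc (colored points) and for the genes of 5 lists (gray points, 1 per gene, with the median of each list as a bar). All list genes lie between -0.18 and 0.27, whereas Rpph1 is at 3.36 and Rmrp at 5.88 in the contrast that chose them.

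Across the 6 libraries, the level of Rmrp followed that of Rpph1, with a Pearson r of 0.98 for log2(RPKM + 0.1), while Terc had an r of -0.42 with Rmrp and -0.32 with Rpph1. The 2 CAPH2 libraries are the lowest points of both RNAs, and the levels compared share the depth of each library. Both RNAs were chosen as higher with SMC2 than with CAPH2 in these same libraries. A high r between them follows in part from that choice, while Terc was not so chosen. Of 15683 rows with a mean of at least 50 counts, the most like Rmrp were Neurl1b (0.96), Mief1 (0.94), Rpl32l (0.94), Tmem141 (0.94) and 1500011B03Rik (0.93). The most like Rpph1 were Sap130 (0.95), Rpl32l (0.95), 1500011B03Rik (0.95), Tmem141 (0.94) and Mief1 (0.93). These are the highest of many values over 6 libraries and are given as a description. Rows below that minimum, which Rpph1 with a mean of 35.2 counts also misses, were not searched. The ranges of the rows named here were far smaller. The highest RPKM of Neurl1b was 2.54 times its lowest, and that of Mief1 was 1.11 times.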

How the data were processed

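Reads had been mapped by the authors to mm9 (NCBI build 37) using Bowtie with settings -e 70 -k 1 -m 2 -n 2, and counted exonic reads per RefSeq transcript with the program RPKM_count, version 2.3.5. The deposited files hold, per library, raw counts and RPKM values for 26073 RefSeq rows and 92 ERCC rows. The deposited RPKM divides the count by exon length and library reads, without use of the ERCC RNAs. Whether counting used strand is not given in the sources used here. Total counts over all rows were 25467427 to 31337313, in which a read of a shared exon counts for each isoform.

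The members and gene lists were chosen with earlier results of these data known. Log2 changes relative to GFP are of deposited RPKM without a pseudocount, and for a target the RPKM of the hairpins were averaged first, as in the study. SMC2 and CAPH2 were compared with the quasi-likelihood test of edgeR 4.0.16 in R 4.3.3, with TMM scaling and Benjamini-Hochberg adjustment, on the deposited counts of 18245 rows with at least 10 counts in at least 2 of the 4 libraries. The step was tested on simulated counts, in which every row had the same dispersion and only better-counted rows were changed. It therefore does not cover rows with counts as low and hairpins as far apart as those of Rmrp and Rpph1. DESeq2 1.42.0, other scalings and filters, a replicate block and the omission of each hairpin were alternatives. Intervals are exact (95%, Python 3.11.15, scipy 1.17.1) and cover counting error only. Copies were searched with blastn 2.17.0. Gene symbols were found for 25353 rows through RefSeq accessions (GRCm38.p6 table, names only), and sequences were read from the mm9 genome.

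Genes were named by a rule: the 3 RNAs, the knockdown targets, the nearest gene on each side of each RNA, core proteins and the 2 largest differences of each list among genes with a mean of at least 50 counts, and the 5 rows most like Rmrp and Rpph1 over the 6 libraries. Tbrg3 and Mir686 were added outside this rule after the data were seen. Other small RNAs of RNA polymerase III that have no row under the names searched were not analysed here.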

Additional observations from a re-analysis of the deposited data

How the results depend on the processing

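Counts of rows called between SMC2 and CAPH2 were small and depended on the setting. Against 1 row with edgeR and TMM, there were 3 with DESeq2 size factors, 4 with ERCC counts as library sizes, 8 with no filter, 3 with 1 row per gene, 15 with the replicate block and 5 with DESeq2, and 1 with library totals. Leaving out a hairpin gave 1 to 404, the highest without CAPH2 #2 and 29 without CAPH2 #1, where the lone library is assumed to vary like the other group. The paired numbers of the CAPH2 and SMC2 libraries name different hairpins. Over the rows fitted, the deviations of libraries with the same number had a correlation of 0.0402. The common coefficient of variation between libraries estimated by edgeR was 0.0674 without the replicate block and 0.0577 with it. Whether libraries with the same number share more than the number is not known. With the replicate block the log2 difference was 5.77 for Rmrp, 3.27 for Rpph1 and -0.15 for Terc.

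The log2 differences of Rmrp and Rpph1 between SMC2 and CAPH2 kept their direction under every alternative run. This is the contrast that chose both RNAs, and the alternatives reuse the same counts, so the kept direction is a description only. Leaving out a hairpin gave 4.51 to 6.59 for Rmrp and 2.38 to 3.96 for Rpph1, in both cases lowest without SMC2 #2, and with Rmrp and Rpph1 kept in the fit where the filter would have dropped them. That of Terc turned to 0.17 under ERCC scaling and lay between -0.60 and 0.35 when a hairpin was left out, being positive only without CAPH2 #2.

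Relative to GFP, ERCC scaling gave -0.21 for Rmrp and -0.49 for Rpph1 with SMC1, -3.16 for Rpph1 with CAPH2 and 1.00 for Terc with SMC2, and turned the SMC2 means to 0.47 for Rmrp and 0.49 for Rpph1. Other RNAs without a poly(A) tail as library sizes gave -3.52 for Rpph1 with CAPH2 and 0.033 for Terc with SMC2. Adding 1 to the RPKM gave -3.92 for Rmrp and -2.51 for Rpph1 with CAPH2, where it understates the change of low levels, and 0.27 for Terc with SMC2. Without a hairpin the SMC2 means were -1.51 to 0.59 for Rmrp and -1.09 to 0.49 for Rpph1, positive without SMC2 #1, and the CAPH2 means were -6.54 to -5.84 and -3.51 to -3.46. The cause of these shifts was not tested. Of 104 values under alternatives, 78 stayed within the spread between hairpins, the counting interval or 1.5 times the count. For changes relative to GFP, leaving out 1 of 2 hairpins can hardly move the mean beyond the spread between these same hairpins. The SMC2 mean of -1.51 for Rmrp is thus among the 78. The tally describes the alternatives and does not measure robustness. Depth limits Rmrp with CAPH2 to 1 and 2 counts and Terc to 16 to 28 counts in any library.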
